A study of Mus musculus with 2 samples.

Results

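The GIMAP cluster is a row of 8 genes for GTPases of the immune system on mouse chromosome 6: Gimap8, Gimap9, Gimap4, Gimap6, Gimap7, Gimap1, Gimap5 and Gimap3, in the order in which they lie on the chromosome. Its accessible chromatin was read from the ATAC-seq peaks of mouse T cells. All peaks with a summit between 20 kb before the first gene body and 20 kb after the last were taken, a window of 164 kb at chr6:48627234-48790851 of the GRCm38 (mm10) build. It held 34 of the 78016 peaks of replicate 1 and 28 of the 74653 peaks of replicate 2. Merging peaks that shared at least 1 bp gave 32 of the 84666 regions of the genome.

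In ATAC-seq a transposase cuts open chromatin and tags the ends for sequencing, so that reads pile up where nucleosomes leave the DNA free. The study had 1 group of 2 libraries from primary T cells of strain C57BL/6NJ, numbered as biological replicates, with no second genotype, treatment or time. Both carry the same donor record and separate sample records, so they may or may not stem from different animals, and the spread between them may be technical. Sex and age are not given. A linked protocol concerns CD4+ T-cell differentiation, and words in the peak names (Th0, 72hrs, ASTARR.insert) are not explained by the labels, so the state and culture time of the cells are not known here, nor whether the fragments came straight from cells or from inserts of a library. All 6 T-cell markers looked at (Cd3e, Cd3d, Cd3g, Cd4, Lck and Cd28) had a promoter peak in both libraries, as against 0 of 3 B-cell, 0 of 3 myeloid and 0 of 2 hepatocyte markers. Of all protein-coding genes, 62.8% had such a peak. Each peak has a signal value, read here as its fold enrichment over the local background, and a −log10 q, both the peak caller's own values for that library. Read depth is unknown, and a −log10 q also depends on depth. An interval without a peak therefore cannot be told from one below the caller's threshold.

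GIMAP proteins share a GTP-binding domain of the AIG1 type, and most sit on membranes inside lymphocytes. They are best known from the survival and upkeep of T and B cells. Gimap5, on lysosomal membranes, is required for long-lived T cells in mice and rats, and its loss causes the lack of T cells in the diabetes-prone BB rat. Gimap1 is required for mature lymphocytes in mice. Gimap6 binds Gabarapl2, a protein of autophagy, and Gimap4 has been linked to the course of T-cell death. Gimap3 is a close copy of Gimap5, and Gimap8 is the long member with several GTP-binding domains.

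The DNA just before the 5′ ends of 4 genes is shown because these cover the range of the results: Gimap7 had the strongest promoter peak, Gimap4 the weakest, and Gimap5 and Gimap3 are the close copies, of which Gimap5 had no summit at its start. Each is the 150 bases before the outermost exon that GENCODE or RefSeq annotate there, read 5′ to 3′ on the gene's own strand from RefSeq's GRCm38 sequence. For Gimap7 that exon belongs to the overlapping gene Gm28053, so its sequence ends a few bases before the 5′ end of Gimap7 itself. Capitals mark matches to the consensus sequences of RUNX (TGNGGT), NFAT (TGGAAA) and ETS (CNGGAAG) factors on either strand. In Gimap5 the NFAT and ETS matches lie side by side and read as 1 run of capitals. The intervals are chr6:48718457-48718606 (plus strand) for Gimap7, chr6:48684399-48684548 (plus) for Gimap4, chr6:48746047-48746196 (plus) for Gimap5 and chr6:48770852-48771001 (minus) for Gimap3.
Gimap7 upstream: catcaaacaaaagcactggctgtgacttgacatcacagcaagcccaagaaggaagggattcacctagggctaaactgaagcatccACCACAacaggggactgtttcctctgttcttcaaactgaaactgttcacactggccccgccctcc
Gimap4 upstream: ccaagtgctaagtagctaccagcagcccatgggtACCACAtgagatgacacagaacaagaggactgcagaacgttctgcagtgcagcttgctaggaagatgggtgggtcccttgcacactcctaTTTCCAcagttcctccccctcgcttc
Gimap5 upstream: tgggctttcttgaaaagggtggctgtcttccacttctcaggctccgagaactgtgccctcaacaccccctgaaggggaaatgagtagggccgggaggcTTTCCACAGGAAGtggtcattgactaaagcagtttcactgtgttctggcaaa
Gimap3 upstream: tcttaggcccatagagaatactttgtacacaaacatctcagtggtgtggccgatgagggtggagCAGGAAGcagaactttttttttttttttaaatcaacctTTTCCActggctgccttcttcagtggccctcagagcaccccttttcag

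The 100 bases around 5 distal summits are shown because these regions had the 5 highest mean signal values away from the starts. They are given on the plus strand of the same build. The first is the strongest distal region, between Gimap7 and Gimap1 (chr6:48733082-48733181), with a RUNX and a forkhead (TGTTTAC) match. The second is in an intron of the neighbouring gene AI854703 (chr6:48628985-48629084), with an AP-1 match (TGANTCA). The third lies beyond Gimap3 (chr6:48785206-48785305), with a forkhead match. The fourth is the summit inside Gimap5 (chr6:48747745-48747844), with an AP-1 match. The last is in an intron of Gimap3 (chr6:48768618-48768717), with ETS and RUNX matches.
Between Gimap7 and Gimap1: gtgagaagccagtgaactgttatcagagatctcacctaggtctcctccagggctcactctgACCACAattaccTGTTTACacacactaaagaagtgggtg
AI854703 intron: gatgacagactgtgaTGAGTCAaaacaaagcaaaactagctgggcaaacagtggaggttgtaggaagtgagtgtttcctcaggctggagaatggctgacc
Beyond Gimap3: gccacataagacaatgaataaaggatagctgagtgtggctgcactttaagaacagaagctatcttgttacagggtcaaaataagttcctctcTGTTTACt
Inside Gimap5: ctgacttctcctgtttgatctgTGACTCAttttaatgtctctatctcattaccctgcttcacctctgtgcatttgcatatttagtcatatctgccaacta
Gimap3 intron: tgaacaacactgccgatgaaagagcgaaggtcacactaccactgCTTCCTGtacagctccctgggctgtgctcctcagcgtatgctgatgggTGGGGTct

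Every one of the 8 genes had a peak of both libraries over its annotated 5′ end. This was so for 60.5% of the 21853 protein-coding genes when any of a gene's starts was counted. By the rule used for the classes, a summit within 1000 bp of a start, 7 of 8 GIMAP genes had a promoter peak in both libraries, against 62.8% of all genes, and Gimap5 was the exception. GIMAP promoters were present but mostly low: 6 of the 7 genes lay below the median of the 13724 genes with such a peak, which was 11.2 as the mean of both libraries (quartiles 8.13 and 13.8). The T-cell markers were also below it, all 6 of them, with signal values of 2.84 and 3.24 at Cd4, the lowest, and 9.91 and 10.6 at Lck, the highest.

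Gimap7 had the strongest promoter peak of the cluster. Its signal value was 13.4 in replicate 1 and 12.7 in replicate 2, or 13.1 ± 0.510 (SD, n = 2), with a −log10 q of 345 and 232. The summit was at the same base in both libraries, 13 bp before the nearest start, within a region of 915 bp at chr6:48718132-48719046. Only this member reached the upper part of the promoters: it stood at percentile 68.5 of all gene promoters in replicate 1 and 67.7 in replicate 2.

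Gimap8, the first gene of the row, came next. Its signal value was 8.91 in replicate 1 and 7.09 in replicate 2 (8.00 ± 1.29, SD, n = 2), with a −log10 q of 202 and 100. It had the largest spread between libraries among the members, and the lower of its values was still above the highest of the 5 members that follow. Its summit lay 93 bp before the start in both libraries, in a region of 2113 bp. Another weak region, with a summit 668 bp after a Gimap8 start, had signal values of 1.80 and 2.19 and −log10 q values of 4.04 and 6.36.

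Gimap9, Gimap3, Gimap6 and Gimap1 formed a middle group. Gimap9 had signal values of 5.79 in replicate 1 and 5.66 in replicate 2 (5.73 ± 0.0877, SD, n = 2). Gimap3 had 5.44 and 5.70 (5.57 ± 0.179). These neighbours in the order did not differ beyond their spread, since the higher value of Gimap3 exceeds the lower value of Gimap9. Gimap6, the partner of Gabarapl2, had 5.40 and 5.13 (5.26 ± 0.191), so its higher value was just under the lower value of Gimap3. Gimap1, the gene required by mature lymphocytes, had 4.47 and 4.81 (4.64 ± 0.242) and lay below all 3. These genes stood between percentiles 7.61 and 12.8 of all gene promoters in replicate 1 and between 8.80 and 12.6 in replicate 2. The −log10 q ordered the group differently: Gimap9 had 129 and 88.1, Gimap3 85.9 and 72.0, Gimap1 68.5 and 57, and Gimap6 46.0 and 32.5.

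Gimap4 had the weakest promoter peak of the 7. Its signal value was 2.37 in replicate 1 and 2.65 in replicate 2 (2.51 ± 0.2, SD, n = 2), with a −log10 q of 19.1 and 18.3. Both values lay below those of every other member, at percentiles 0.472 and 0.890 of all gene promoters. The summit was 27 bp before the start in replicate 1 and 32 bp before it in replicate 2. The peak belonged to a region of 3260 bp that ran on into the gene. Replicate 1 split this region into the promoter peak and an intron peak with a signal value of 3.79 and a −log10 q of 41.0, whereas replicate 2 had a single peak with its summit at the start. The merged region took the intron summit and was therefore counted as distal.

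Gimap5 had no promoter summit, although its 5′ end was covered. The region over it spanned 2561 bp (chr6:48745628-48748188), and its summit lay 1598 bp after the start. Its signal value was 6.61 in replicate 1 and 6.14 in replicate 2 (6.37 ± 0.331, SD, n = 2), with a −log10 q of 275 and 177. In both libraries that −log10 q was second only to Gimap7 within the window. A peak list gives 1 summit per peak, so a weaker maximum at the start itself would not be listed. Gimap3, on the opposite strand, had separate regions at its promoter and in its intron. The intron region had signal values of 6.86 and 5.83 and −log10 q values of 138 and 78.4.

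**Figure D1:**
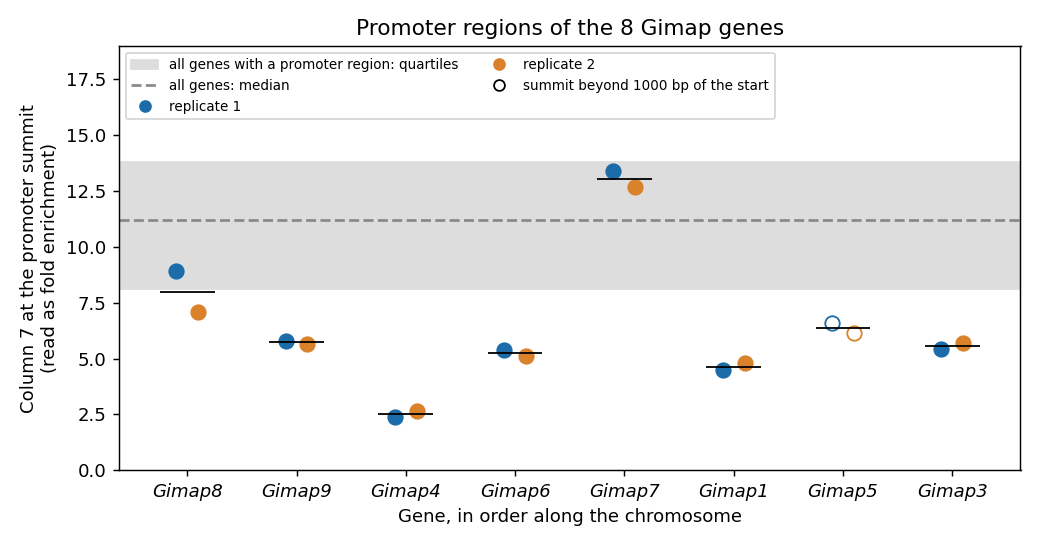
Signal value (column 7, fold enrichment as read from the files) of the promoter peak of each GIMAP gene in the 2 libraries, with a short line at their mean, the median of all gene promoters as a dashed line and their quartiles as a grey band. Gimap7 stands above that median in both libraries, Gimap4 is lowest at 2.37 and 2.65, and the open circles of Gimap5 are the region with its summit beyond 1000 bp of the start.

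Away from the starts, 20 distal regions were present in both libraries. Of these, 10 were intergenic, 7 lay in introns, 2 in exons of noncoding transcripts and 1 in a coding exon of Gimap7. They include the Gimap4 region, whose summit lay in the intron in replicate 1 but at the start in replicate 2. Its replicate 2 value of 2.65 is therefore that of the promoter peak. The loci of the 8 genes, each reaching 20 kb past both ends of the gene, held between 4 distal regions at Gimap8 and 9 at Gimap4 and Gimap6. The median over all protein-coding genes was 2 and the 90th percentile was 6. Neighbouring loci share regions, so these counts are not independent of each other.

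The strongest distal region lay between Gimap7 and Gimap1, 5922 bp before the Gimap1 start, at chr6:48732629-48733505. Its signal value was 11.5 in replicate 1 and 10.5 in replicate 2 (11 ± 0.764, SD, n = 2), with a −log10 q of 261 and 174. In each library it exceeded every member promoter but that of Gimap7. The position is inside an intron of Gm28053, an annotated protein-coding gene that runs from the Gimap7 start into Gimap5. The annotated starts of Gm28053 are next to those of Gimap7 and Gimap1, so their promoter peaks cannot be told apart from peaks of its own. In this region 15.5% of the 32-base words occur elsewhere in the assembly.

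The other distal regions were weaker and lay between and inside the genes. Near each edge of the window lay a region with a higher signal than most. The one in an intron of AI854703, a neighbouring gene whose end reaches into the window, had signal values of 9.20 and 9.10 and −log10 q values of 94.2 and 66.5. The one beyond Gimap3 (chr6:48784793-48785570) had signal values of 5.96 and 7.62 and was one of the regions that were higher in replicate 2. Its −log10 q values of 17.6 and 20.9 lay below the medians of the window's peaks, 30.2 in replicate 1 and 26.7 in replicate 2.

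Between Gimap9 and Gimap4, a region 2716 bp before Gimap4 had signal values of 4.73 and 4.49 and −log10 q values of 115 and 72.0. Gimap6 held a region in its intron with signal values of 4.60 and 4.17, against 5.40 and 5.13 at its promoter. The coding exon of Gimap7 held one with 4.62 and 3.59. Inside Gimap1 a region had 3.06 and 3.03, below the promoter of that gene in both libraries. The weakest distal region in both libraries lay before Gimap9, with signal values of 2.43 and 2.54.

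The rule's distance decided the class of a few regions. Just inside it was the weak Gimap8 intron region at 668 bp, and just outside it were the AI854703 intron region at 1100 bp after a start, described above, and the weak region 1120 bp before Gimap9, while the Gimap5 summit lay farther out. At the edges of the window, the nearest summits left out were those of the AI854703 promoter, 146 bp outside in replicate 1 and 188 bp outside in replicate 2, with signal values of 5.23 and 4.26. On the other side the nearest summit of replicate 1 was 1094 bp outside, with a signal value of 3.31.

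**Figure D2:**
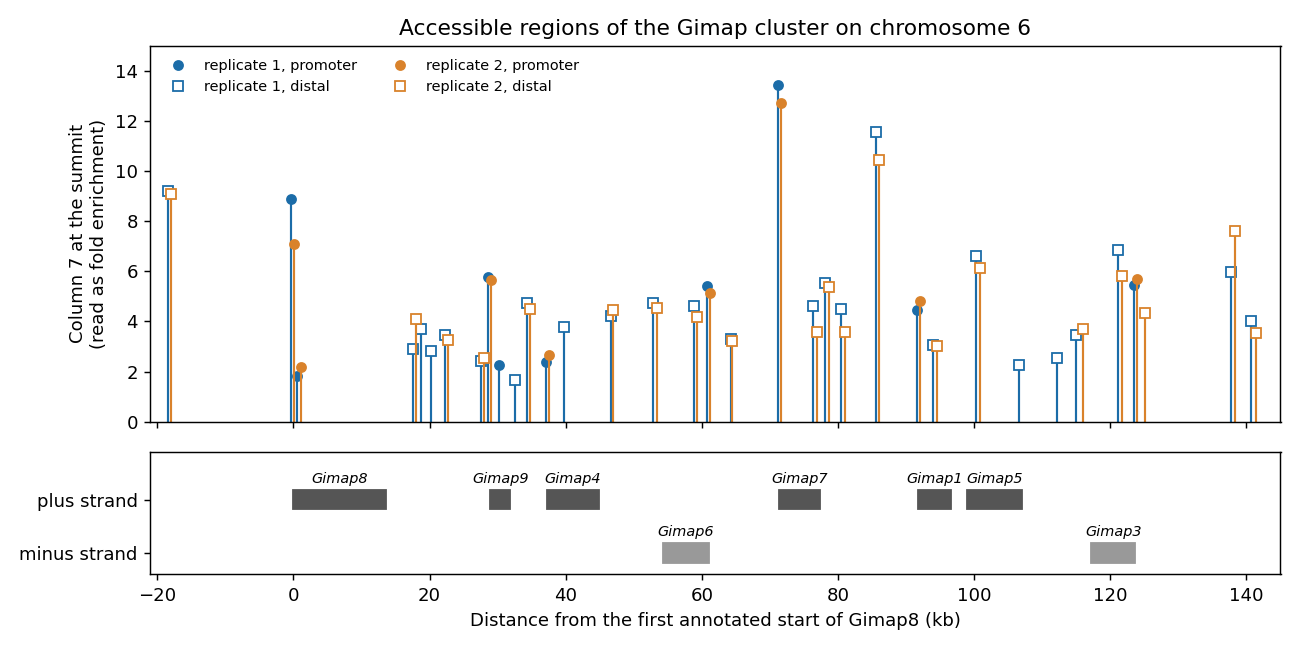
Map of the GIMAP window with the gene bodies and, for replicate 1 and replicate 2, the signal value (column 7) of each peak at its summit, by distance in kb from the Gimap8 start, the libraries being drawn slightly apart. The highest points are the Gimap7 promoter at 13.4 and 12.7 and the distal region between Gimap7 and Gimap1 at 11.5 and 10.5.

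Accessible regions were packed densely in the GIMAP window. It held 16.5 regions of both libraries per 100 kb, against 2.45 in the genome, and 12.2 distal regions per 100 kb, against 1.94. Peaks covered 17.9% of its bases in replicate 1 and 16.4% in replicate 2, against 2.13% and 2.06% of the genome. The gap between neighbouring summits had a median of 5368 bp and ranged from 911 bp to 18.1 kb, the widest lying before the Gimap8 promoter. When all chromosomes were cut into 16647 consecutive windows of the same length, 13 of them (0.0781%) held 27 or more regions of both libraries, and the median window held 1.

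The windows of 2 other tandem families of immune genes held fewer regions per 100 kb. The Gbp window on chromosome 3, with 5 genes for interferon-induced GTPases, had 8.69 regions per 100 kb. The Slfn window on chromosome 11, with 7 Schlafen genes, had 7.90. The listed genes lay closest in the GIMAP window, with 8 in 164 kb, against 5 Gbp genes in 184 kb and 7 Slfn genes in 304 kb. Regions of both libraries numbered 27 in the GIMAP, 16 in the Gbp and 24 in the Slfn window. Per listed gene these counts were alike, so the difference in density is one per base. The share of genes with a promoter peak was alike: 7 of 8 GIMAP, 4 of 5 Gbp and 6 of 7 Slfn genes. Signal values were lower in the GIMAP window. Its 7 promoter regions include the weak Gimap8 intron region and leave out Gimap4, whose merged region was counted as distal. Promoter regions had a median signal value of 5.44 in replicate 1 and 5.66 in replicate 2 in the GIMAP window, 9.81 and 9.56 in the Gbp window, 8.17 and 8.52 in the Slfn window, and 10.8 and 10.3 in the genome. Distal regions had medians of 4.55 and 4.14 in the GIMAP window, 7.10 and 5.84 in the Gbp window, 5.76 and 5.65 in the Slfn window, and 6.68 and 6.41 in the genome. In both libraries, 6 of 7 promoter regions and 16 of 20 distal regions of the GIMAP window lay below the genome's median for their class. No test was made between windows, since each is a single place in 2 libraries.

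With only the 50000 peaks of highest signal value per library, the GIMAP window kept 11 regions in both libraries, or 6.72 per 100 kb, against 1.68 in the genome. As many regions or more were then found in 658 of the consecutive windows (3.95%). With the 50000 peaks of highest −log10 q it kept 19, or 11.6 per 100 kb, against 1.70, and 36 windows (0.216%) held as many.

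**Figure D3:**
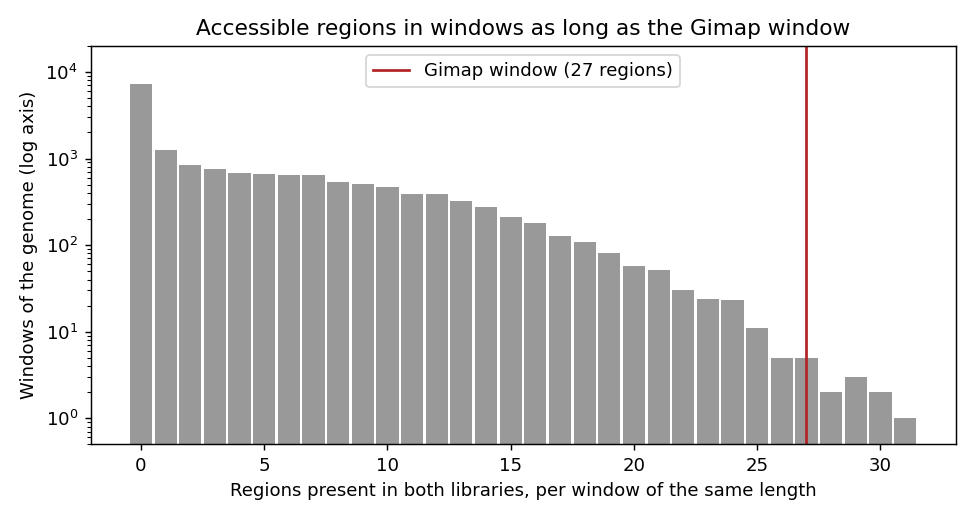
Number of consecutive genome windows of the length of the GIMAP window, on a log scale, by the number of regions of both libraries they hold, with the GIMAP window marked at 27. Most windows hold few regions, with a median of 1.

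The signal value and the −log10 q placed the GIMAP peaks differently. The median −log10 q of the window's peaks was 30.2 in replicate 1 and 26.7 in replicate 2, close to the 30.3 and 23.9 of all peaks, although their signal values were lower. Among peaks with a signal value from 4 to 5, the window's median −log10 q was 36.4 (n = 8) in replicate 1 against 11.5 for all such peaks, and 20.6 (n = 7) in replicate 2 against 8.84. In all, 30 of 34 window peaks in replicate 1 and 26 of 28 in replicate 2 had a −log10 q above the median of all peaks of the same step of signal value. The peaks were also wider than most, with a median of 730 bp in replicate 1 and 778 bp in replicate 2, against 628 and 638 bp.

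**Figure D4:**
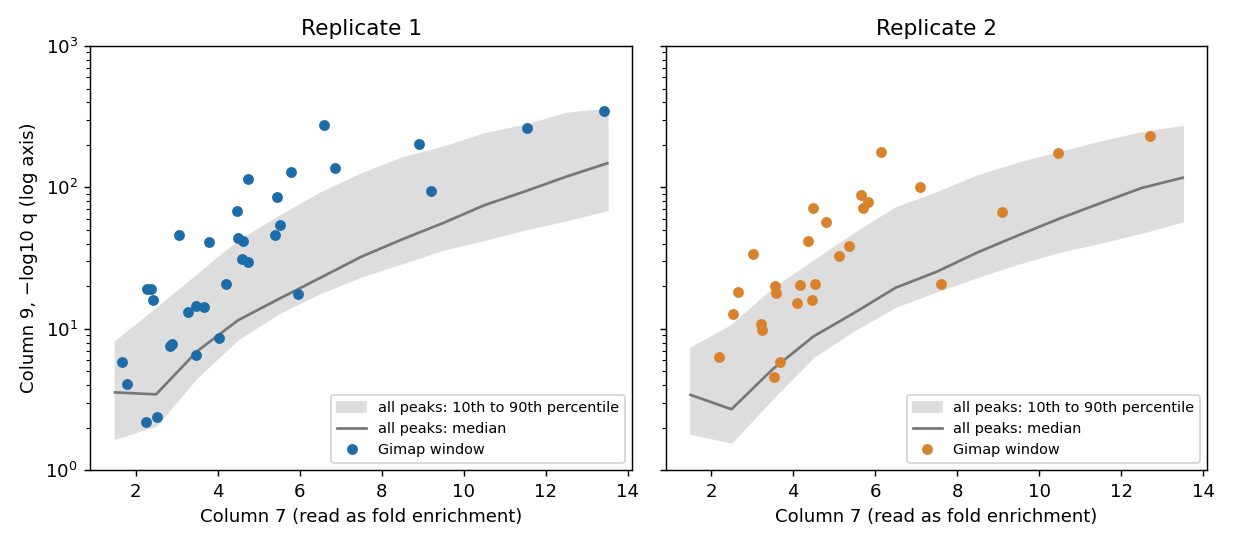
The −log10 q (column 9) of peaks against their signal value (column 7) in each library, on a log axis, with the GIMAP window's peaks as points, the median of all peaks at each step of signal value as a line and the 10th to 90th percentiles as a grey band. Of the window's peaks, 30 of 34 in replicate 1 and 26 of 28 in replicate 2 lie above that median.

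The GIMAP promoters were poor in CpG dinucleotides. The 7 merged promoter regions measured include 2 at Gimap8 and none at Gimap4, whose merged region took the intron summit. In 200 bp around the summit, the 7 promoter regions had a median GC content of 52.0%, against 65% for all promoter regions. Their ratio of observed to expected CpG had a median of 0.182 and ranged from 0.0768 to 0.325, against a median of 0.802. When all promoter regions were ordered by this ratio and cut into 5 equal groups, all 7 fell in the lowest group, which ends at 0.518. The lowest group had a median signal value of 7.23 (quartiles 4.72 and 10.4), while the other groups had medians of 10.4 to 11.7. Gimap7 and Gimap8 lay above the median of the lowest group, and Gimap9, Gimap3, Gimap6, Gimap1 and the Gimap8 intron region below it. At the Gimap4 start the ratio was 0.251 around the summit of replicate 1 and 0.236 around that of replicate 2. At Gimap6 it was 0.324 around the summit of replicate 1, which was used, and 0.614 around that of replicate 2, which is above the end of the lowest group. The distal regions of the window had a GC content of 47.8%, against 48.0% for all distal regions, and a CpG ratio of 0.120 against 0.208.

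**Figure D5:**
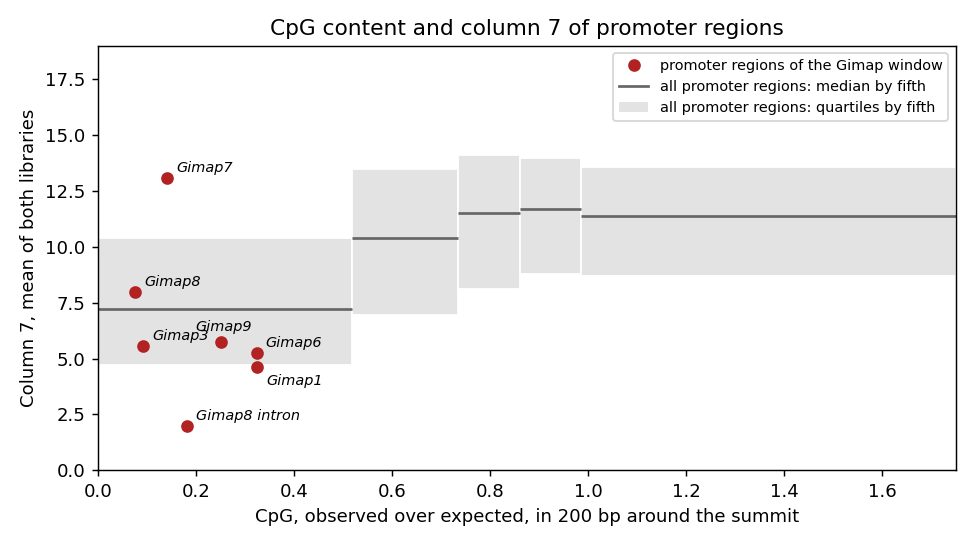
Mean signal value (column 7) of both libraries against the ratio of observed to expected CpG in the bases around the summit, for the 7 GIMAP promoter regions and for all promoter regions in 5 equal groups of that ratio (line, median; grey band, quartiles). All 7 GIMAP regions have a ratio of 0.325 or less, and Gimap7 and Gimap8 stand above the median of the lowest group.

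Consensus sequences of factors active in T cells were searched on both strands in the 100 bp around each summit. These are matches of letters, not sites shown to be bound, and TGNGGT in particular also takes in letters that RUNX factors do not prefer. Of the 20 distal regions, 7 (35%) held an E-box (CANCTG), against 27.2% of all distal regions, and 5 (25%) a RUNX match, against 26.8%. AP-1 matches stood in 3 (15%), against 22.0%: the AI854703 intron, the Gimap4 intron and the Gimap5 summit shown above. ETS matches stood in 2 (10%), against 12.5%, and NFAT in 1, against 11.3%. No CTCF match was found at a distal summit of the window, against 9.05% of all distal regions. The forkhead letters stood in 2 (10%), against 0.969%, in the strongest distal region and the one beyond Gimap3. With so few regions these shares rest on few matches. In 200 bp around the summit, 12 of 20 (60%) held a RUNX match, against 44.6%, and 12 of 20 an E-box, against 46.3%, so the RUNX share changed from below that of all distal regions to above it. The forkhead letters still stood in 2 of 20 (10%) there, against 2.34%, a smaller contrast than in 100 bp.

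In the 150 bases before the 5′ end of the gene in GENCODE, taken alike for the 8 genes and all others, a RUNX match stood in 4 of 8 genes (Gimap1, Gimap4, Gimap7 and Gimap9), against 25% of all protein-coding genes. An NFAT match stood in 4 of 8 (Gimap1, Gimap3, Gimap4 and Gimap5), against 10%. ETS matches were found in Gimap3 and Gimap5 only, where 19% of all genes had one, and an E-box in Gimap9, against 28.5%. The ETS letters ask for C at their first base, so that GCGGAAG before Gimap6, for example, was not counted. The copies Gimap3 and Gimap5 both held NFAT and ETS matches, spaced apart in Gimap3 and adjoining in Gimap5. Gimap9 also had a MYB match (AACTGNC), against 6.26%, and the other 10 consensus sequences were in none of the 8 windows.

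The genes are copies of each other, so the likeness of their sequences was measured. The coding sequences of Gimap3 and Gimap5 were 97.9% identical over 720 bp, and those of Gimap7 and Gimap9 71.9% over 526 bp. Of 28 pairs of members, 12 gave an alignment, with only the best segment of each pair kept. Apart from the pairs just named, these alignments spanned 48 to 271 bp. The proteins differ in length: Gimap8 has 688 codons, and the other 7 have 291 (Gimap9) to 328 (Gimap4). Of all 32-base words of the window, 9.13% occur elsewhere in the assembly and 1.81% more than once inside the window. The region over the Gimap5 start held 0% of words found elsewhere, and the Gimap3 intron region 0.267%. The Gimap3 promoter region held 4.38%, and 0.515% of its words occurred more than once inside the window. The highest shares were 28.9% in a weak region between Gimap5 and Gimap3 and 22.4% in the weak one before Gimap9. How reads matching several places were placed is not given in the sources used here.

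The libraries named largely the same regions. Of the 32 merged regions 27 (84.4%) were in both, against 79.0% in the genome. In replicate 1, 29 of 34 window peaks (85.3%, exact Clopper-Pearson 95% interval 68.9 to 95) overlapped a peak of replicate 2, against 86.5% of all its peaks. In replicate 2, 28 of 28 (100%, interval 87.7 to 100) overlapped a peak of replicate 1, against 90.3%. The intervals cover counting error only and take the peaks as independent, which they are not. Of the replicate 1 peaks, 2 at Gimap9 overlapped the same replicate 2 peak, and 2 at Gimap4 overlapped another single one. The 5 regions of replicate 1 alone were weak, with signal values from 1.67 to 3.68 and −log10 q values from 2.20 to 14.3. They lay before Gimap9, after Gimap9, at the end of Gimap5 and between Gimap5 and Gimap3.

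Of the 27 regions, 19 had the higher signal value in replicate 1. Over the 24 that matched 1 peak to 1 peak, the log2 ratio of replicate 1 to replicate 2 had a median of 0.07 and an SD of 0.21, with a range from −0.50 to 0.36. Over all 65721 such regions the median was 0.06 and the SD 0.23. Summits of 21 of the 24 were within 100 bp of each other.

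Genes of the processes that GIMAP proteins are linked to were also looked at. Of 11 genes of the BCL2 family, which sets the threshold for cell death, 10 had a promoter peak in both libraries, as against 62.8% of all genes. Their highest value was at Pmaip1, which encodes the death-promoting protein NOXA, with 12.4 and 11.6. The lowest was at Bbc3, which encodes PUMA, with 5.32 and 4.92, and Bcl2a1a, one of several near-identical copies in the mouse, had none. All 5 genes of the Atg8 family, whose products coat autophagosomes, had one, against the same 62.8%. Among them Map1lc3a was highest with 13.0 in both libraries and Gabarap lowest with 6.65 and 6.41. Gabarapl2, whose product binds Gimap6, had 11.2 and 10.8, against 5.40 and 5.13 at Gimap6 itself.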

How the data were processed

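ATAC-seq peaks of mouse T cells were analysed from 2 libraries of 1 group. Each deposited list holds the peaks of that library alone on mm10, per the labels. The aligner, the peak caller and its threshold are not given in the sources used here. The deposited column 7 was read as a fold enrichment, a ratio over the local background, since no source states its unit. The deposited score in column 5 was not used. Column 9 is the −log10 q-value as deposited. Neither is scaled between libraries, so they were used to describe and rank peaks. Peaks on other sequences (88 and 80) were left out.

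Members and lists were chosen with earlier results of these data known, and all were named. Starts are the 54361 protein-coding starts of GENCODE mouse release 21, and sequence is RefSeq's of the same build. Merged regions took the strongest summit. With 1 group no test between conditions was possible, and none was made. Alternatives were another promoter distance, overlap, flank, start set, window and peak threshold, and each library alone. The code was tested on simulated data. Python 3.11.15, pandas 2.3.3, numpy 2.4.6, scipy 1.17.1, matplotlib 3.10.9 and blastn 2.17.0 were used.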

Additional observations from a re-analysis of the deposited data

How the results depend on the processing

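Of 92 comparisons of a main value with an alternative, 75 stayed within the spread or within 1.5 times the count and 17 moved. Some of the 75 could not have moved, since the count of 1 library depends neither on the overlap rule nor on the other library. With a replicate left out, the regions counted as in both libraries were those of the remaining library alone. Direction was not scored. In the main setting the promoter median was above the distal median (5.55 and 4.35, means of both libraries). With the 50000 peaks of highest signal value it was below. Keeping the 50000 peaks of highest signal value left 11 regions in each library and in both, 6 of them distal, or 6.72 per 100 kb against 16.5, with median signal values of 5.74 for promoter and 6.81 for distal regions, and 5 GIMAP genes with a promoter, Gimap1, Gimap4 and Gimap5 having none. Keeping the 50000 peaks of highest −log10 q, chosen after seeing the data, left 21 regions in replicate 1 and 13 distal regions in both. A promoter distance of 2000 bp gave 12 promoter regions instead of 7, a distal median of 3.94, and a promoter at all 8 genes, as did counting regions that cover a start. The promoter median of 5.55, as the mean of both libraries, became 5.26 with 50% reciprocal overlap or no flank and 4.98 with the starts of all transcripts, and was 5.39 and 5.40 with replicate 1 or 2 left out. The distal median of 4.35 ranged from 4.04 to 4.26 with either replicate left out. The cause was not tested. Of 36 further comparisons, on single genes and consensus matches, 9 moved and 27 did not. Among all 27 regions, widening the search to 200 bp took RUNX matches to 13 regions instead of 6 and E-boxes to 15 instead of 9. No paired analysis was possible because there was 1 group. Unknown depth limits what a missing peak means.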

Other observations

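Within 30 kb outside the window, 5 more regions were present in both libraries. The strongest of them lay 11.2 kb beyond the end of the window, in intergenic DNA at chr6:48801693-48802539, with signal values of 15.9 in replicate 1 and 14.9 in replicate 2 and −log10 q values of 144 and 89.4. Both signal values exceed that of the Gimap7 promoter, the highest in the window, while both −log10 q values are below it. On the other side, the promoter of Zfp775, a zinc-finger gene, had 13.7 and 12.9 with −log10 q values of 404 and 280.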
